A study of Homo sapiens with 2 samples.

Results

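The beta tubulin isotypes were examined in A2780, a long-established line of human ovarian cancer cells. They are the 7 genes TUBB, TUBB2A, TUBB2B, TUBB3, TUBB4A, TUBB4B and TUBB6, taken by symbol from the 58735 genes of the deposited table, and all 7 were found. RNA was measured by poly(A)-selected sequencing in 2 libraries. The shJAM3 library came from cells labelled as a JAM3 knockdown, and the shControl library from cells labelled WT, which the design text describes as carrying an empty vector. The design text calls the knockdown stable and names siRNA as its means, although sh stands before the gene name in the titles. The labels name no drug treatment, and whether either culture was a single clone is not stated there. Levels are in FPKM, which is fragments scaled to gene length and to library size.

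With 1 library in each group there was no test of the conditions, and every difference is between these libraries without a replicate check. The shJAM3 library held 16455079 fragments in genes and the shControl library 15570262. JAM3, the targeted gene, had 14 fragments in shJAM3 (0.154 FPKM) and 18 in shControl (0.215 FPKM), a ratio of 0.716 with a 95% counting interval of 0.330 to 1.52. A difference in JAM3 was therefore not detectable at this depth. Of the 12 ovarian and epithelial markers listed, FOLR1, KRT8, KRT18, KRT7, MSLN and VIM were measured in both libraries. Of these 6, 4 were higher in shJAM3, where 49.4% of measured protein-coding genes were higher. The lower ones were MSLN (ratio 0.641) and KRT7 (ratio 0.666). Their log2 ratios were -0.64 for MSLN and -0.58 for KRT7. Once the median of genes of like GC content was subtracted, these were -0.14 for MSLN and -0.20 for KRT7. PAX8 stood at 0.527 FPKM in shJAM3 and 1.12 FPKM in shControl, a ratio of 0.471 (0.344 to 0.641). MUC16, which encodes the ovarian carcinoma antigen CA-125, had a mean below 1 FPKM. It stood at 1.07 FPKM in shJAM3 and 0.475 FPKM in shControl, a ratio of 2.25 (1.98 to 2.57). WT1 had 0 fragments in shJAM3 and 1 in shControl, and EPCAM, CDH1 and KRT19 were below 1 FPKM in both.

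Microtubules are polymers of dimers, each made of an alpha and a beta tubulin. The beta subunit holds the site that taxanes such as paclitaxel bind, and the drug stabilises the polymer and blocks mitosis. Human cells make several beta isotypes from separate genes. They differ mostly in the acidic tail at the C-terminus, which lies on the outside of the microtubule and is modified by polyglutamylation. A high level of class III beta tubulin, the product of TUBB3, has been linked to poor taxane response in several carcinomas, ovarian carcinoma among them. Cells also adjust tubulin mRNA to the amount of free dimer. When free tubulin is in excess, the factor TTC5 recognises the beginning of the nascent tubulin chain at the ribosome and its mRNA is degraded.

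The tail ends of the coding sequences were set side by side, although the isotypes also differ elsewhere in their coding sequences. The last 60 coding bases of each gene, stop codon included, are shown 5′ to 3′ from the GENCODE 29 transcripts (GRCh38), with in-frame GAA and GAG codons in capitals; as background, these codons encode glutamate, the residue that polyglutamylation modifies.
TUBB: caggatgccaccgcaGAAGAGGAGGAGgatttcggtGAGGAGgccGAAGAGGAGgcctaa
TUBB4B: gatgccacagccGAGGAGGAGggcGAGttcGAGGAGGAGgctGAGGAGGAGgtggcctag
TUBB4A: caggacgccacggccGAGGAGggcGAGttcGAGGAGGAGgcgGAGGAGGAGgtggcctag
TUBB2A: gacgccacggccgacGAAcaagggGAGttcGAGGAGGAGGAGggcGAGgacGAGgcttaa
TUBB2B: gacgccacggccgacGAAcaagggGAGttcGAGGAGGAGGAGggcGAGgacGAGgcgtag
TUBB3: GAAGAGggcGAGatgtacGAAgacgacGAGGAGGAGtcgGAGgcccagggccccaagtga
TUBB6: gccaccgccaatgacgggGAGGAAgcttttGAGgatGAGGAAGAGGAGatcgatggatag
TUBB4B had 10 such codons among the last 20, TUBB and TUBB4A had 9, TUBB2A, TUBB2B and TUBB3 had 8, and TUBB6 had 7. The tail segments of TUBB2A and TUBB2B are nearly alike, and the full coding sequences of this pair differed at 25 of 1338 bases, an identity of 98.1%. All other pairs were between 80.9% (TUBB and TUBB6) and 90.1% (TUBB2A and TUBB4A) identical. At the other end, where the signal read by TTC5 is encoded, the coding sequences began as ATGagggaaatc in TUBB and TUBB4B, ATGagggagatc in TUBB3 and TUBB6, ATGcgggagatc in TUBB4A, ATGcgcgagatc in TUBB2A and ATGcgtgagatc in TUBB2B, with the start codon in capitals.

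Beta tubulin mRNA was higher in the shJAM3 library, mostly through TUBB and TUBB4B, and 1 minor isotype, TUBB2B, was lower. Summed over the 7 genes, the level was 595.1 FPKM in shJAM3 and 392.2 FPKM in shControl, a ratio of 1.52. The summed fragments numbered 28110 in shJAM3 and 16486 in shControl, a ratio of 1.57 once scaled to library size (95% interval 1.54 to 1.60 for counting error only), and this scaled ratio of fragments gives long genes more weight than the ratio of summed FPKM does. Of the difference of 202.9 FPKM in the sum, TUBB accounted for 59.3% and TUBB4B for 31.5%. Without TUBB the sum was 329.3 FPKM in shJAM3 and 246.7 FPKM in shControl, a ratio of 1.33. Ratios of single genes with intervals are of FPKM, and log2 ratios were taken of FPKM + 1, a scale that understates differences of low genes.

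By a size rule of at least 2-fold on that log2 scale, 1 of the 6 isotypes with a mean of at least 1 FPKM was past it, TUBB2B on the lower side. Among all 12214 genes measured at that level 3.41% were past the rule in either direction, and among protein-coding genes 1.80%. At 1.5-fold, TUBB and TUBB6 were past it on the higher side, 2 of 6, against 7.11% of all measured genes and 5.12% of protein-coding ones. On the lower side TUBB2B was again past it, 1 of 6, against 9.82% of all measured genes and 9.30% of protein-coding ones. TUBB2B reached the mean of 1 FPKM only through shControl, with 2.70 FPKM there and 0.765 FPKM in shJAM3. At a mean of at least 5 FPKM, 0 isotypes were past 2-fold. The log2 ratio was above 0 for 5 of 6, against 50.5% of all measured genes and 49.4% of protein-coding ones. The median log2 ratio of these 6 was 0.37, and that of all measured genes was 0.00. Among these 6 the counting interval lay above 1 for TUBB, TUBB4B, TUBB6 and TUBB4A, against 33.0% of measured genes. It lay below 1 for TUBB2B, against 33.6%, and included 1 for TUBB2A. TUBB3, whose mean was below 1 FPKM and which is outside these shares, also had an interval above 1.

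**Figure D1:**
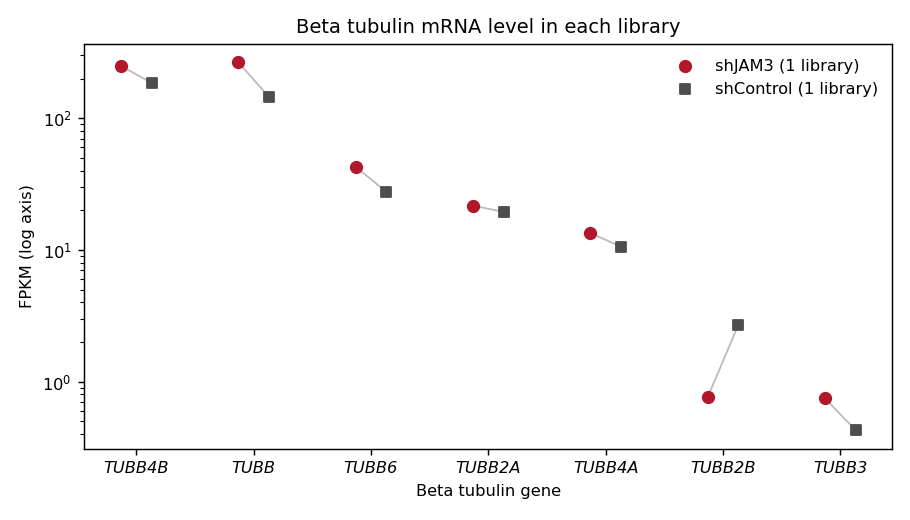
FPKM of each beta tubulin gene on a log axis, with the shJAM3 library as red circles and the shControl library as grey squares (1 library each, no error bars). TUBB is the highest in shJAM3 at 265.8 FPKM and TUBB4B the highest in shControl at 185.9 FPKM, and TUBB2B is the only isotype drawn lower in shJAM3.

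TUBB encodes class I beta tubulin, the isotype made in nearly all proliferating cells. It had 14891 fragments in shJAM3 (265.8 FPKM) and 7508 in shControl (145.5 FPKM), a ratio of 1.83 (1.78 to 1.88). On the log2(FPKM + 1) scale the ratio was 0.86, higher than 99.2% of measured protein-coding genes. TUBB (ENSG00000196230) is on chromosome 6, from 30720201 to 30725426 (GRCh38, plus strand), and 16.0% of its exon bases are shared with AL662797.1 on the opposite strand. That gene held 10 fragments in shJAM3 and 3 in shControl, so few fragments were assigned to it beside those of TUBB. The sources used here do not say how fragments in a stretch shared by 2 genes were assigned.

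TUBB4B, class IVb, is likewise made in most tissues and is also a component of cilia. Its 8797 fragments in shJAM3 gave 249.9 FPKM and its 6028 in shControl gave 185.9 FPKM, so that the ratio was 1.34 (1.30 to 1.39) and the log2 ratio 0.42. TUBB4B (ENSG00000188229) lies on chromosome 9 at 137241213 to 137243707, plus strand. Both abundant isotypes were among the most abundant mRNAs of these cells. Of 19932 protein-coding genes, 112 stood above TUBB4B by mean FPKM and 122 above TUBB. By distance in the pair of log2(FPKM + 1) values, the measured protein-coding genes nearest to TUBB4B were RPS6 (250.1 FPKM in shJAM3 and 194.3 in shControl), EIF5A (247.5 FPKM in shJAM3 and 194.9 in shControl) and LDHA (259 FPKM in shJAM3 and 196 in shControl), a likeness over 2 libraries only.

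TUBB6, class V, is a more divergent isotype found in many tissues at lower levels. It stood at 42.8 FPKM in shJAM3 and 27.7 FPKM in shControl, from 2937 fragments in shJAM3 and 1750 in shControl. The ratio was 1.55 (1.46 to 1.64) and the log2 ratio 0.61, above 95.7% of measured protein-coding genes. TUBB6 (ENSG00000176014) lies on chromosome 18 at 12307669 to 12344320, plus strand, where 20.3% of its exon bases are shared with AFG3L2 on the opposite strand, a mitochondrial protease gene. AFG3L2 had 13.5 FPKM in shJAM3 and 12.7 FPKM in shControl, so the measured difference in TUBB6 was larger than that of its neighbour.

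TUBB4A, class IVa, is best known from brain, where mutations affect myelin. It had 777 fragments in shJAM3 (13.4 FPKM) and 564 in shControl (10.6 FPKM), a ratio of 1.27 (1.14 to 1.42). TUBB4A (ENSG00000104833) lies on chromosome 19 at 6494319 to 6502848, minus strand. AC010503.1 and AC010503.2 on the opposite strand lie within its exons (15.0% and 8.54% of exon bases) and had 0 fragments in both libraries.

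TUBB2A and TUBB2B encode the class II isotypes, which are abundant in neurons, and their genes lie near each other on chromosome 6. TUBB2A (ENSG00000137267, 3153669 to 3157526, minus strand) had 625 fragments in shJAM3 (21.7 FPKM) and 516 in shControl (19.4 FPKM), a ratio of 1.12 (0.991 to 1.26). Its counting interval included 1, so a difference in TUBB2A was not detectable at this depth. TUBB2B (ENSG00000137285, 3224261 to 3231730, minus strand) had 28 fragments in shJAM3 (0.765 FPKM) and 91 in shControl (2.70 FPKM), a ratio of 0.283 (0.179 to 0.437). Its log2 ratio was -1.07, lower than all but 1.07% of measured protein-coding genes, and it was the only isotype on the lower side.

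These class II values are uncertain because the pair is so similar. Of all windows of 100 bases in the TUBB2B transcript, 42.4% occur letter for letter in a TUBB2A transcript, and 54.4% of those in the TUBB2A transcript occur in TUBB2B. The sources used here do not say whether fragments matching both genes were kept. TUBB4A and TUBB6 shared no such window with any other gene of the family, TUBB shared 5.10%, all with the pseudogene TUBBP1, TUBB3 shared 5.15% and TUBB4B 2.86%. Summed, TUBB2A and TUBB2B had 653 fragments in shJAM3 and 607 in shControl, a ratio of 0.991 once scaled to library size (0.886 to 1.11), an interval that included 1. The summed class II level was 22.5 FPKM in shJAM3 and 22.1 FPKM in shControl, slightly higher in shJAM3. In TUBB2B 7.93% of exon bases are shared with PSMG4 on the opposite strand, which stood at 2.69 FPKM in shJAM3 and 2.78 FPKM in shControl.

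TUBB3, class III, is the neuronal isotype that is used as a marker of neurons and of taxane-resistant carcinoma. It was low in both libraries, with 55 fragments in shJAM3 (0.744 FPKM) and 29 in shControl (0.426 FPKM). The ratio was 1.75 (1.10 to 2.84), and by mean FPKM 11234 protein-coding genes stood above it. TUBB3 (ENSG00000258947) lies on chromosome 16 at 89921392 to 89938761, plus strand. A gene on the same strand, AC092143.1, covers 35.8% of its exon bases and 95.8% of its coding bases, and that gene was listed at 0 in both libraries. The table does not show whether any fragments from the shared stretch were counted for TUBB3. Spread over the 2846 exon bases not shared with AC092143.1, the same fragments would correspond to 1.16 FPKM in shJAM3 and 0.663 FPKM in shControl, a calculation added after the data were seen. Of 14 neuron markers only SNAP25 and INA were measured, 6 had 0 fragments in both libraries, and the summed level was 8.94 FPKM in shJAM3 and 8.96 FPKM in shControl.

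**Figure D2:**
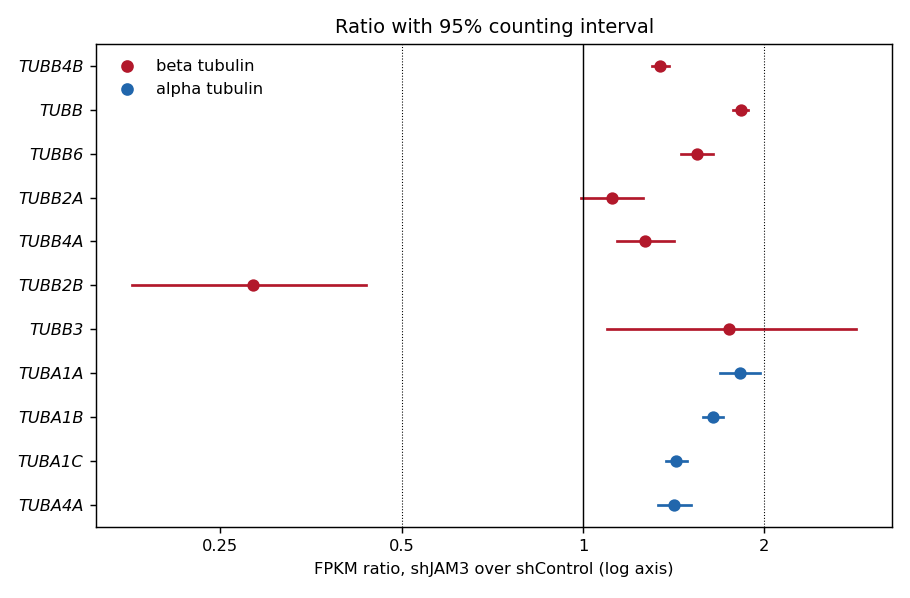
Ratio of FPKM in shJAM3 over shControl on a log axis for the 7 beta tubulins (red) and the 4 measured alpha tubulins (blue), with 95% intervals for counting error only. Dotted lines mark 2-fold. TUBB2B at 0.283 lies far to the left and TUBA1A and TUBB, at 1.82 and 1.83, lie closest to the upper dotted line with narrow intervals.

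Other genes named after beta tubulin contributed little. TUBB1, the platelet isotype, had 16 fragments in shJAM3 and 24 in shControl, and TUBB8, an oocyte isotype, had 0 in both, where 3 fragments would be 0.0603 FPKM in shJAM3 and 0.0655 FPKM in shControl. Of 36 such rows, 28 had 0 fragments in both libraries. The highest was TUBBP1, a transcribed processed pseudogene of TUBB, with 77 fragments in shJAM3 (2.80 FPKM) and 27 in shControl (1.07 FPKM), a ratio of 2.63 (1.67 to 4.24). It thus differed in the same direction as TUBB, with which it shares windows of sequence. The 34 rows other than TUBB1 and TUBB8, nearly all annotated as pseudogenes, together held 87 fragments in shJAM3 and 31 in shControl.

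The make-up of the beta tubulin pool differed between the libraries, with a larger share of TUBB in shJAM3. TUBB was 44.7% of the summed FPKM in shJAM3 and 37.1% in shControl. TUBB4B was 42.0% in shJAM3 and 47.4% in shControl. Together these isotypes made up 86.7% of the pool in shJAM3 and 84.5% in shControl. TUBB6 held 7.19% in shJAM3 and 7.05% in shControl. TUBB2A held 3.65% in shJAM3 and 4.96% in shControl, and TUBB4A 2.26% in shJAM3 and 2.70% in shControl. TUBB2B was 0.129% of the pool in shJAM3 and 0.688% in shControl, and TUBB3 0.125% in shJAM3 and 0.109% in shControl. As a share of fragments, which favours long genes, TUBB took 53.0% (52.4 to 53.6, exact 95% binomial interval) in shJAM3 and 45.5% (44.8 to 46.3) in shControl.

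By deposited FPKM, the order of the isotypes differed at the top and was otherwise the same. In shJAM3, TUBB exceeded TUBB4B by a factor of 1.06 (1.04 to 1.09). In shControl, TUBB4B exceeded TUBB by a factor of 1.28 (1.23 to 1.32). Below them both libraries had TUBB6, TUBB2A, TUBB4A, TUBB2B and TUBB3 in that order. TUBB2B and TUBB3 could not be told apart in shJAM3, where the ratio of their levels was 1.03 (0.628 to 1.65), whereas in shControl TUBB2B was above TUBB3 by a factor of 6.34 (4.13 to 9.98). By the added calculation, TUBB3 (1.16 FPKM) would stand above TUBB2B (0.765 FPKM) in shJAM3. In shControl TUBB3 (0.663 FPKM) would stay below TUBB2B (2.70 FPKM). All other neighbours in the order differed beyond counting error in both libraries.

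**Figure D3:**
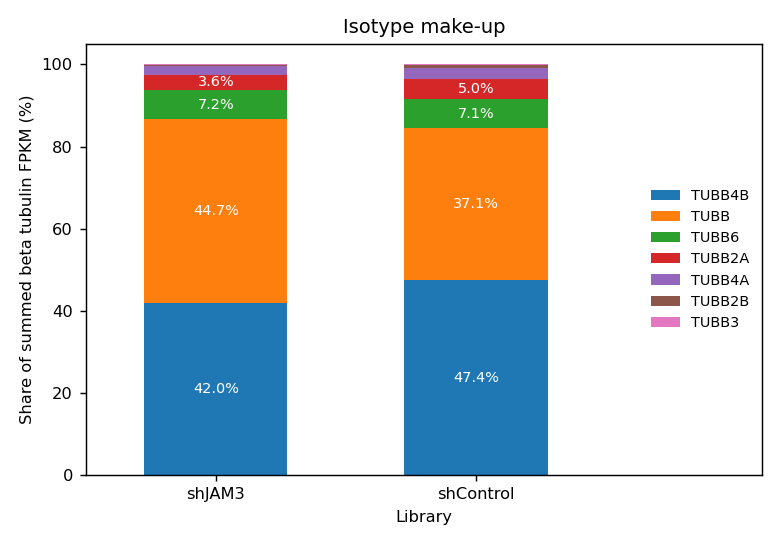
Share of each isotype in the summed beta tubulin FPKM (%), with the shJAM3 library on the left and the shControl library on the right. The TUBB segment is 44.7% in shJAM3 and 37.1% in shControl, and the TUBB4B segment is 42.0% in shJAM3 and 47.4% in shControl.

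The difference between isotypes was also taken pair by pair, which does not depend on how the libraries were scaled. Among the 5 isotypes with a mean of at least 5 FPKM there are 10 pairs, and for 8 of them the interval of the ratio of ratios excluded 1, with no adjustment for the number of pairs and counting error only. TUBB4B over TUBB was 0.940 in shJAM3 and 1.28 in shControl, a ratio of ratios of 0.736 (0.705 to 0.768). TUBB over TUBB2A was 12.2 in shJAM3 and 7.48 in shControl, a ratio of ratios of 1.64 (1.45 to 1.85). TUBB over TUBB6 was 6.21 in shJAM3 and 5.26 in shControl, a ratio of ratios of 1.18 (1.11 to 1.26). The interval included 1 for TUBB4B over TUBB4A (0.944 to 1.19) and for TUBB2A over TUBB4A (0.747 to 1.03).

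The GC content of a transcript moved with the log2 ratio across the whole table. Across 10496 measured protein-coding genes, which are not independent replicates, r was -0.50, and the median log2 ratio was 0.23 in the group of lowest GC and -0.44 in the group of highest GC. All 7 beta tubulins had a GC content above the median of 49.1%, with TUBB lowest at 52.6% and TUBB4A highest at 62.0%. The isotypes on the higher side thus stood against the direction of this trend, and their log2 ratios were larger once the median of the genes of like GC had been subtracted. So centred, the log2 ratio was 0.91 for TUBB, 0.91 for TUBB6, 0.63 for TUBB4B, 0.62 for TUBB4A and 0.36 for TUBB2A. That of TUBB2B was -0.91. After centring, none of the 6 was past 2-fold, against 1.03% of measured protein-coding genes, and 4 of 6 were past 1.5-fold on the higher side, against 3.66%. Between TUBB and TUBB6, whose ratio of ratios had an interval above 1, the centred log2 ratios differed by only -0.0018.

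**Figure D4:**
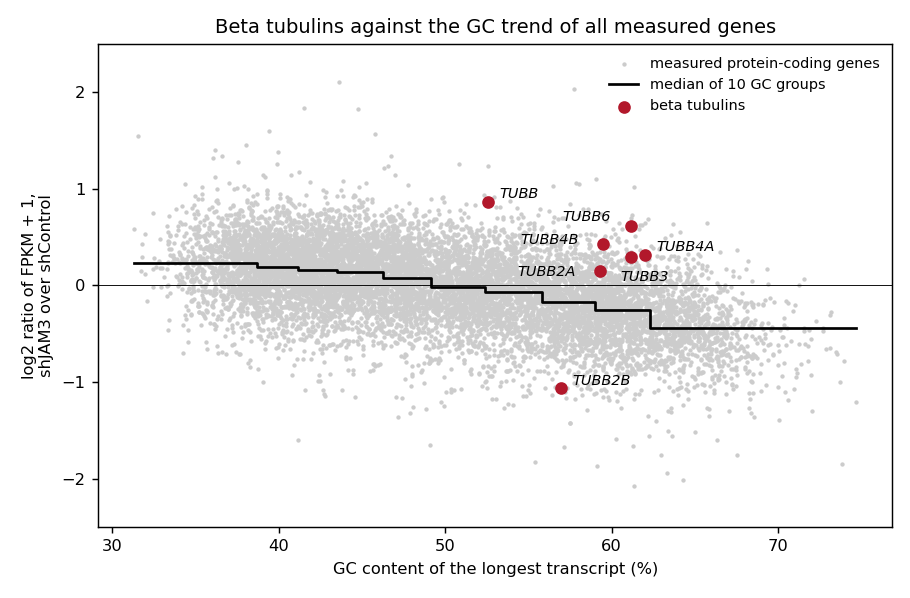
Log2 ratio of FPKM + 1, shJAM3 over shControl, against the GC content of the longest transcript (%), for measured protein-coding genes (grey) and the beta tubulins (red); the black line is the median in 10 GC groups. The line runs from 0.23 at low GC to -0.44 at high GC, and all beta tubulins except TUBB2B lie above it.

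The partner of beta tubulin in the dimer was higher as well. All 4 measured alpha tubulin genes were higher in shJAM3, where 49.4% of measured protein-coding genes were higher. Of the 4 alpha tubulins 2 were past 1.5-fold higher, against 5.12% of measured protein-coding genes. Their median log2 ratio was 0.61. TUBA1B, the main alpha tubulin of dividing cells, stood at 126.5 FPKM in shJAM3 and 77.0 FPKM in shControl, a ratio of 1.64 (1.58 to 1.71). TUBA1A, abundant in developing brain, had 35.1 FPKM in shJAM3 and 19.3 FPKM in shControl, a ratio of 1.82 (1.69 to 1.97). TUBA1C had a ratio of 1.43 (1.37 to 1.49) and TUBA4A of 1.42 (1.33 to 1.51). TUBA1A, TUBA1B and TUBA1C are close copies of each other, so the split among them is uncertain. The summed alpha tubulin level was 276.9 FPKM in shJAM3 and 177.4 FPKM in shControl. Of the low members, TUBA3D had 8 fragments in shJAM3 and 13 in shControl, TUBA4B had 15 in shJAM3 and 1 in shControl, and TUBA8 had 1 in shJAM3 and 15 in shControl. TUBA3E had 0 fragments in shJAM3 and 1 in shControl, TUBAL3 had 0 in shJAM3 and 2 in shControl, and TUBA3C had 0 in both.

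Most genes of the folding machinery for tubulin were higher too, where 49.4% of measured protein-coding genes were higher. The list medians were below that of the alpha tubulins, and lower again after GC centring. All 8 genes of the CCT chaperonin, the ring in which new tubulin and actin chains fold, were higher, with a median log2 ratio of 0.42, or 0.31 after GC centring, and none past 1.5-fold. CCT2 stood at 70.2 FPKM in shJAM3 and 50.5 FPKM in shControl (ratio 1.39), and CCT8, CCT4 and CCT7 had ratios of 1.38, 1.38 and 1.35. Of 6 prefoldin genes, whose product hands chains to CCT, 5 were higher, with a median of 0.18, or 0.16 after GC centring. VBP1 had a ratio of 1.52, PFDN5 of 1.27 and PFDN4 of 1.25, whereas PFDN2 had a ratio of 0.847. The summed prefoldin level was not higher, at 267.7 FPKM in shJAM3 and 268.4 FPKM in shControl. Much of it was PFDN2, with 142.8 FPKM in shJAM3 and 168.7 FPKM in shControl. Of 7 genes for the cofactors that assemble the dimer 6 were higher, with a median of 0.19, or 0.05 after GC centring. ARL2, TBCA and TBCB had ratios of 1.27, 1.23 and 1.23, and that of TBCEL was 1.26. The reader of the nascent tubulin chain in autoregulation, TTC5, was at 2.30 FPKM in shJAM3 and 1.56 FPKM in shControl, a ratio of 1.47 (1.25 to 1.74). Its log2 ratio was 0.36, and 0.18 when centred on GC. CNOT11, which links it to the deadenylase, had a ratio of 1.32 (1.23 to 1.43), and that of the adaptor SCAPER was 1.08 (0.898 to 1.31). Centred on GC, the log2 ratio of CNOT11 was 0.38 and that of SCAPER was -0.12, on the lower side.

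For gamma, delta and epsilon tubulin and the gamma tubulin ring complex, which nucleates microtubules, 13 genes were listed. Of these 9 were higher and 4 lower, with a median of 0.27, where 49.4% of measured protein-coding genes were higher. After GC centring 12 were higher and 1 lower, with a median of 0.30. TUBD1, which encodes delta tubulin, had a ratio of 1.81 (1.38 to 2.38), MZT1 of 1.48, TUBGCP5 of 1.55 and MZT2A of 0.719. TUBD1 was the member past 1.5-fold on the log2(FPKM + 1) scale, where the log2 ratio of TUBGCP5 was 0.48. TUBG1, the main gamma tubulin and added after its values were seen, stood at 59.0 FPKM in shJAM3 and 43.8 FPKM in shControl. The members on the lower side were MZT2A, MZT2B, TUBGCP2 and TUBGCP6, of which only MZT2A was still lower after GC centring.

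Enzymes that modify tubulin went both ways. Of 14 measured 7 were higher and 7 lower, where 49.4% of measured protein-coding genes were higher. The median was 0.08, and on the log2(FPKM + 1) scale 2 were past 1.5-fold higher and 1 lower. After GC centring 10 were higher and 4 lower, with a median of 0.13. TTLL5, which adds glutamate to tubulin tails, was at 4.27 FPKM in shJAM3 and 2.18 FPKM in shControl, a ratio of 1.96 (1.74 to 2.20). TPGS1 and TPGS2 encode subunits of the tubulin polyglutamylase complex, and TPGS2 had a ratio of 1.71 (1.55 to 1.90) while TPGS1 had a ratio of 0.411 (0.306 to 0.547). The catalytic subunit of that complex, TTLL1, had 21 fragments in shJAM3 and 41 in shControl, a ratio of 0.472 (0.265 to 0.817). ATAT1, the alpha tubulin acetyltransferase, was outside the 4 members named by rule and is added after its values were seen, with a ratio of 2.11 (1.47 to 3.06) from 103 fragments in shJAM3 and 45 in shControl.

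Microtubule-associated proteins went both ways. Of 14 measured 5 were higher and 9 lower, where 49.4% of measured protein-coding genes were higher. After GC centring 6 were higher and 8 lower, so the count was near that share. The median was -0.20, or -0.10 after GC centring, and 3 were past 1.5-fold lower and 1 higher. MAP1A stood at 4.59 FPKM in shJAM3 and 9.89 FPKM in shControl, a ratio of 0.464 (0.426 to 0.505). DCLK2, a doublecortin-like kinase, had a ratio of 0.466 (0.385 to 0.563) and MAP7D1, a cofactor of kinesin-1, of 0.552 (0.526 to 0.580). The log2 ratio of MAP7D1 was -0.84, and -0.34 when centred on GC. EML4 was higher, with a ratio of 1.94 (1.76 to 2.13). Of 7 measured stathmin and severing genes 5 were higher, none past 1.5-fold on the log2(FPKM + 1) scale, with a median of 0.19. STMN1, which sequesters tubulin dimers, had a ratio of 1.34 (1.27 to 1.41), STMN3 of 1.53 (1.01 to 2.35) and FIGNL1 of 1.16.

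Tubulin genes are among those whose mRNA varies over the cell cycle, so mitotic genes are given beside them. Of 20 measured 14 were higher and 6 lower, where 49.4% of measured protein-coding genes were higher. After GC centring 12 were higher and 8 lower, closer to that share. The median log2 ratio was 0.22, or 0.20 after GC centring. The summed level was 723 FPKM in shJAM3 and 694 FPKM in shControl. The largest differences were in CENPE (ratio 2.35), NUSAP1 (1.77), the proliferation antigen MKI67 (1.75) and the securin gene PTTG1 (1.61). BIRC5, outside the members named by rule and added after its values were seen, had a ratio of 0.758. The other members on the lower side, added in the same way, were UBE2C (0.793), PLK1 (0.797), CDC20 (0.857), CCNA2 (0.907) and CCNB1 (0.965). The part of the cell cycle in the tubulin differences was not tested. In bulk RNA, more cells in a state and more RNA per cell cannot be told apart.

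**Figure D5:**
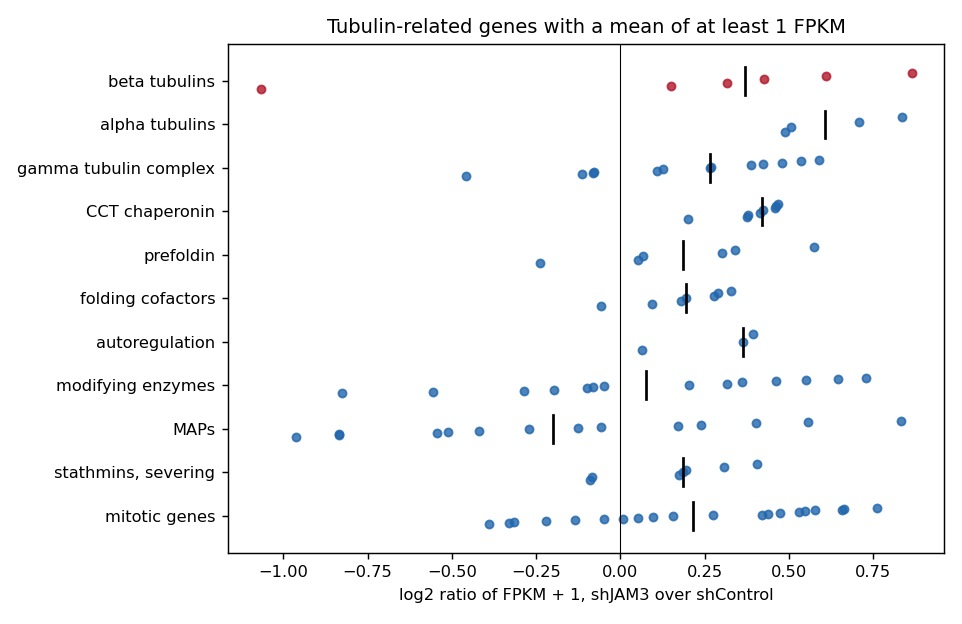
Log2 ratio of FPKM + 1, shJAM3 over shControl, of each gene with a mean of at least 1 FPKM, by list; black bars are list medians. Beta tubulins (median 0.37) and alpha tubulins (median 0.61) lie to the right except TUBB2B, the CCT chaperonin genes cluster near 0.42, and the microtubule-associated proteins (MAPs) spread to both sides with a median of -0.20.

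Promoter sequences of the isotypes were set beside their levels. Windows of 300 bases around annotated starts, 250 before and 50 after, were taken from RefSeq (GRCh38.p14), and all 7 isotypes matched, with 11 windows. The letters CCAAT or their reverse ATTGG, the core recognised by the factor NF-Y, occurred in 6 of the 11 windows, at least 1 window of each isotype except TUBB2A, against 34.6% of all 35116 windows. The windows at chr6:30720102-30720401 for TUBB and chr9:137241037-137241336 for TUBB4B, both on the plus strand, are shown with matches in capitals.
TUBB: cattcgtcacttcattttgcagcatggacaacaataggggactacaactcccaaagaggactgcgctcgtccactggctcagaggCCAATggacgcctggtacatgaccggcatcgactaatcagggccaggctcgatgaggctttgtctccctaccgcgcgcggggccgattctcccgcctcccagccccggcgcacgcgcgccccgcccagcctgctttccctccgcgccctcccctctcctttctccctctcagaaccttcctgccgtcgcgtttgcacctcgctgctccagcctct
TUBB4B: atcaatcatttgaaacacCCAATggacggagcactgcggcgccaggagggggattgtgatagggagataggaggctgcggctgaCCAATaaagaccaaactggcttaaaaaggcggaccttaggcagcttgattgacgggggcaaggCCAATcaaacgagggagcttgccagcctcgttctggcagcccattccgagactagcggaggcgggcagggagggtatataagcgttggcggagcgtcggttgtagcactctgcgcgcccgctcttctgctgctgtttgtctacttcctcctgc
TUBB4B held 3 matches and this TUBB window 1, while a second annotated TUBB window held 0. TUBB2B, the isotype on the lower side, also held 1 match. TUBB4A held 2 matches, and TUBB3 and TUBB6 held 1 each. The letters TTTGAA or TTCAAA, the core of an element found in cell cycle genes, occurred in the TUBB4B window and in no other isotype's window, against 15.2% of all windows, and overlapped no CCAAT match. These are matches of letters, not measured binding, and their relation to the levels was not tested.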

How the data were processed

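RNA from 2 libraries of A2780 cells, shJAM3 and shControl, was analysed from 1 table of FPKM that the authors deposited. Among the tools in the submitters' processing notes, listed without their roles, are HISAT2 2.0.5 and featureCounts 1.5.0-p3. The genome build is not given in the labels, but all 58735 deposited genes had the position and summed exon length of GENCODE release 29 (GRCh38). The library protocol, per the labels, used oligo-dT beads and random hexamers and describes neither strand marking nor molecular identifiers.

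Fragments were recovered as FPKM times gene length in whole multiples of 1 step per library, whole within 0.001 for 100% of values above 0. The recovered totals were 16455079 for shJAM3 and 15570262 for shControl, and the sizes implied by the FPKM were 1.014 and 0.987 times these. Where a symbol occurred more than once the highest row was kept, which left out 1566 rows. Measured genes are those whose mean reached 1 FPKM. Log2 ratios used a pseudocount of 1 FPKM. Ratios carry exact conditional binomial 95% intervals, and shares Clopper-Pearson intervals; both cover counting error only, and PCR copies make them too narrow. Limits for 0 fragments were set at 3. GC content was that of the longest GENCODE transcript, and centring used 20 GC bins of measured protein-coding genes. The calculation was tested on simulated counts. Python 3.11.15, numpy 2.4.6, scipy 1.17.1 and pandas 2.3.3 were used.

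The members, gene lists and alternatives were chosen with earlier results of these data known. Genes named were the 7 isotypes, all other genes named after beta tubulin that had fragments or a known isotype, all alpha tubulins, up to 4 measured members of each list with the largest absolute log2 ratio, JAM3, genes sharing exon bases with an isotype, and the 3 genes nearest to the isotype with the highest mean. One gene that this rule takes is not reported here. Protein sequences were not used here.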

Additional observations from a re-analysis of the deposited data

How the results depend on the processing

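The direction of every isotype was the same with a pseudocount of 0.1 FPKM, with none, with scaling by fragment totals or by the median ratio, and after GC centring. With TUBB2A and TUBB2B summed the log2 ratio was 0.0194. TUBB2A, at 21.7 FPKM in shJAM3 and 19.4 FPKM in shControl, makes up most of that sum. The sum therefore cannot show whether the difference in TUBB2B depended on how near-identical copies were treated, and this was not tested. Without a pseudocount TUBB2B was at -1.82. The log2 ratio of the summed beta tubulin level was 0.60, and 0.64 with scaling by recovered fragment totals, the setting that moved it beyond counting error. The number of isotypes past the size rule was 1, against 0 at a mean of at least 5 FPKM, 0 after GC centring, and 3 with a 1.5-fold rule. GC centring turned the median of the neuron markers to -0.0722 and that of the fibroblast and endothelial markers to 0.0111, each from 2 measured genes. The added calculation for TUBB3 moved its level to 1.16 FPKM in shJAM3 and 0.663 FPKM in shControl and left its ratio as it was. Among the 7 isotypes, depth limits TUBB2B and TUBB3 most. No paired analysis was possible because each group had 1 library, and for the same reason no library could be left out.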

Other observations

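Of the genes for taxane transport and metabolism, the most abundant, ABCC1, was lower in shJAM3. ABCB1, which encodes the efflux pump P-glycoprotein, had 8 fragments in shJAM3 (0.0826 FPKM) and 10 in shControl (0.112 FPKM). Of 11 genes on this list 3 were measured. ABCC1, an efflux pump, stood at 26.5 FPKM in shJAM3 and 34.7 FPKM in shControl, a ratio of 0.763 (0.728 to 0.799). ABCC2 had a ratio of 1.06 (0.998 to 1.12) and ABCC10 of 0.921 (0.765 to 1.11), both intervals including 1. SLCO1B3, an uptake carrier of paclitaxel, had 7 fragments in each library, and CYP2C8, which metabolises it in liver, had 0 in both. No drug response was measured.

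Markers of other cell types were low. The summed level of 9 fibroblast and endothelial markers was 14.8 FPKM in shJAM3 and 17.9 FPKM in shControl, mostly COL1A1 (11.3 FPKM in shJAM3 and 13.5 FPKM in shControl) and PDGFRB. COL1A2 had 0 fragments in both. The summed level of 6 leukocyte markers was 1.36 FPKM in shJAM3 and 2.78 FPKM in shControl, and PTPRC and LYZ had 0 fragments in both. CD14 was the measured member, with 24 fragments in shJAM3 and 66 in shControl.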
